A study of Mus musculus with 6 samples.

Results

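Emx2, Lhx2, Gbx1, Gbx2, Dlx5, Dlx6, Otx1, Otx2, Hmx2 and Hmx3 are 10 homeobox genes of otic and forebrain development, out of 21887 protein-coding genes on the main chromosomes. They were chosen by name and family, with the peak calls of these same libraries (presence, length and pileup) in view, so those values are a description here and not a test. What is described is their peaks of the histone mark H3K4me3 in 4 libraries, called neomycin 1, neomycin 2, untreated 1 and untreated 2, and 4 values given in a row follow that order. The cells were Lgr5-positive progenitors of the mouse cochlea, which are supporting cells of the sensory epithelium, from C57BL/6 mice that carry the Lgr5-EGFP-creERT2 allele. Cochleae were taken at postnatal days 0 to 3 and cultured with the growth factors IGF-1, bFGF and EGF and with heparin sulfate, and cells were sorted by green fluorescence, in both groups alike. The neomycin group (2 libraries) was exposed for 12 h to that aminoglycoside antibiotic, which kills hair cells, and the untreated group (2 libraries) was not. The design asked how H3K4me3 differs between damaged and undamaged progenitors. Each group also has 1 input library, not analysed here. Nothing in the labels ties a library to its own culture or set of animals, so the spread between libraries may be technical. The names of the untreated lists as deposited say H3K4me2, while the labels give H3K4me3 and the same antibody throughout. A difference in mark and a difference in treatment therefore cannot be told apart with certainty.

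Homeobox genes encode transcription factors that bind DNA through a homeodomain and give regions of the embryo their identity. H3K4me3 is laid down at the starts of genes that are active or held ready for activity, mostly where the DNA is rich in CpG. Emx2 directs hair bundle orientation and patterns the forebrain, and Lhx2 is a LIM-homeodomain factor of forebrain, eye and hair follicle. Gbx2 sets the midbrain-hindbrain boundary and shapes the dorsal otic vesicle, and Gbx1 is its paralogue. Dlx5 and Dlx6 lie side by side and act in the vestibular otic vesicle and the jaw. Otx1 is needed for the lateral semicircular canal and Otx2 for the head and forebrain. Hmx2 and Hmx3 are neighbouring genes of the vestibular system.

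The start sites of 6 of the 10 genes (Emx2, Lhx2, Gbx2, Otx2, Hmx2 and Hmx3) were found in a RefSeq promoter table of GRCm38.p6, the assembly of mm10, with 11 starts in all. For Gbx1, Dlx5 and Otx1 the gene end with peaks in more libraries stood in for the start, and for Dlx6, without peaks, the lower end. The windows of 6 of these starts, each of 300 bases, from 250 bases before the start to 50 bases from it on, are printed 5′ to 3′ with each CpG in capitals, to set starts with a peak beside starts without one. They are Emx2 (chr19:59458440-59458739, plus strand), the outer start of Lhx2 (chr2:38339031-38339330, plus), the inner start of Lhx2 (chr2:38351058-38351357, plus), Gbx2 (chr1:89931127-89931426, minus), Hmx3 (chr7:131542713-131543012, plus) and the outermost of 4 starts of Otx2 (chr14:48667595-48667894, minus).
Emx2: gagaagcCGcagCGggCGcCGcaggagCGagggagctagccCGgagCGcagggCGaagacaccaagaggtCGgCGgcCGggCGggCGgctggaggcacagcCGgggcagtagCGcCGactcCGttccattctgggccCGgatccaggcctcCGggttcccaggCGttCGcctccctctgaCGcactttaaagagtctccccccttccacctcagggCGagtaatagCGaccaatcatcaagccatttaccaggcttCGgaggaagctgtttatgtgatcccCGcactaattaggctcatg
Lhx2 outer: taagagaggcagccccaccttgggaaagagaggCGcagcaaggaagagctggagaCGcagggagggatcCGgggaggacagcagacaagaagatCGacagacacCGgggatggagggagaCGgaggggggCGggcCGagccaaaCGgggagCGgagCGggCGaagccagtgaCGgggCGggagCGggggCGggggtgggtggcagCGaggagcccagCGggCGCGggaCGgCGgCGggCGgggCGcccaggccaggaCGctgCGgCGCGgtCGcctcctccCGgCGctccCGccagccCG
Lhx2 inner: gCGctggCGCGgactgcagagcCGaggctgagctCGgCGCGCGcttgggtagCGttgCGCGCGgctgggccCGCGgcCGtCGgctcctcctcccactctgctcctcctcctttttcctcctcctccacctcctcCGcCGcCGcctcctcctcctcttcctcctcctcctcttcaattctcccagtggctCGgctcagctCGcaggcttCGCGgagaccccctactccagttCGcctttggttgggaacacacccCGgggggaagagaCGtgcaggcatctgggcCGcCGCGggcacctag
Gbx2: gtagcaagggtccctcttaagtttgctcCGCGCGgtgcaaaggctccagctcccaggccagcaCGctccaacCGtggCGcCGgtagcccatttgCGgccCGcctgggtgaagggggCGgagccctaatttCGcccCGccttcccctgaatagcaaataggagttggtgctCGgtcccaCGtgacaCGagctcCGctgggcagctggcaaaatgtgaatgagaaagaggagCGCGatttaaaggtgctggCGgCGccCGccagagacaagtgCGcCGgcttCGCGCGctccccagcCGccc
Hmx3: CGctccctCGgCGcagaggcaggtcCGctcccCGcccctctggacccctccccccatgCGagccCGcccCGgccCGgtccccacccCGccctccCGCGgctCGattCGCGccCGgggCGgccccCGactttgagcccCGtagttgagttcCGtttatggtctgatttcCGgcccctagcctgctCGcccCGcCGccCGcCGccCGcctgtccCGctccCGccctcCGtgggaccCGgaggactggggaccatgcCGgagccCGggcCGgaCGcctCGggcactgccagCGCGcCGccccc
Otx2 outermost: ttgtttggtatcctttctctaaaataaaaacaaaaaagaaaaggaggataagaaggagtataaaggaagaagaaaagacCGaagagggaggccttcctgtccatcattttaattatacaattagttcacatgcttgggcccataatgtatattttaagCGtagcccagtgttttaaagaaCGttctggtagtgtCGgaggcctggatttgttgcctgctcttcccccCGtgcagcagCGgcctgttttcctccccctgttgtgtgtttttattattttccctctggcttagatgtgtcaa

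Peaks at these genes were found mostly in the untreated libraries. Within each gene and 1 kb either side there were 18 peaks in all, with 1, 1, 11 and 5 by library. The 2 neomycin peaks lay at different genes, Dlx5 and Otx1. A peak was held by 7 of the 10 genes in untreated 1 (Emx2, Lhx2, Gbx1, Gbx2, Dlx5, Otx1 and Hmx2) and by 4 in untreated 2 (Emx2, Lhx2, Gbx1 and Otx1). Dlx6, Otx2 and Hmx3 had none in any library. Of all protein-coding genes, 39.3%, 37.6%, 51.0% and 39.7% held a peak in that order of libraries, and 40.5% had none in any library. A peak in sorted bulk cells does not tell whether more cells carry the mark or each cell carries more of it. A missing peak means only that none was called.

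**Figure D1:**
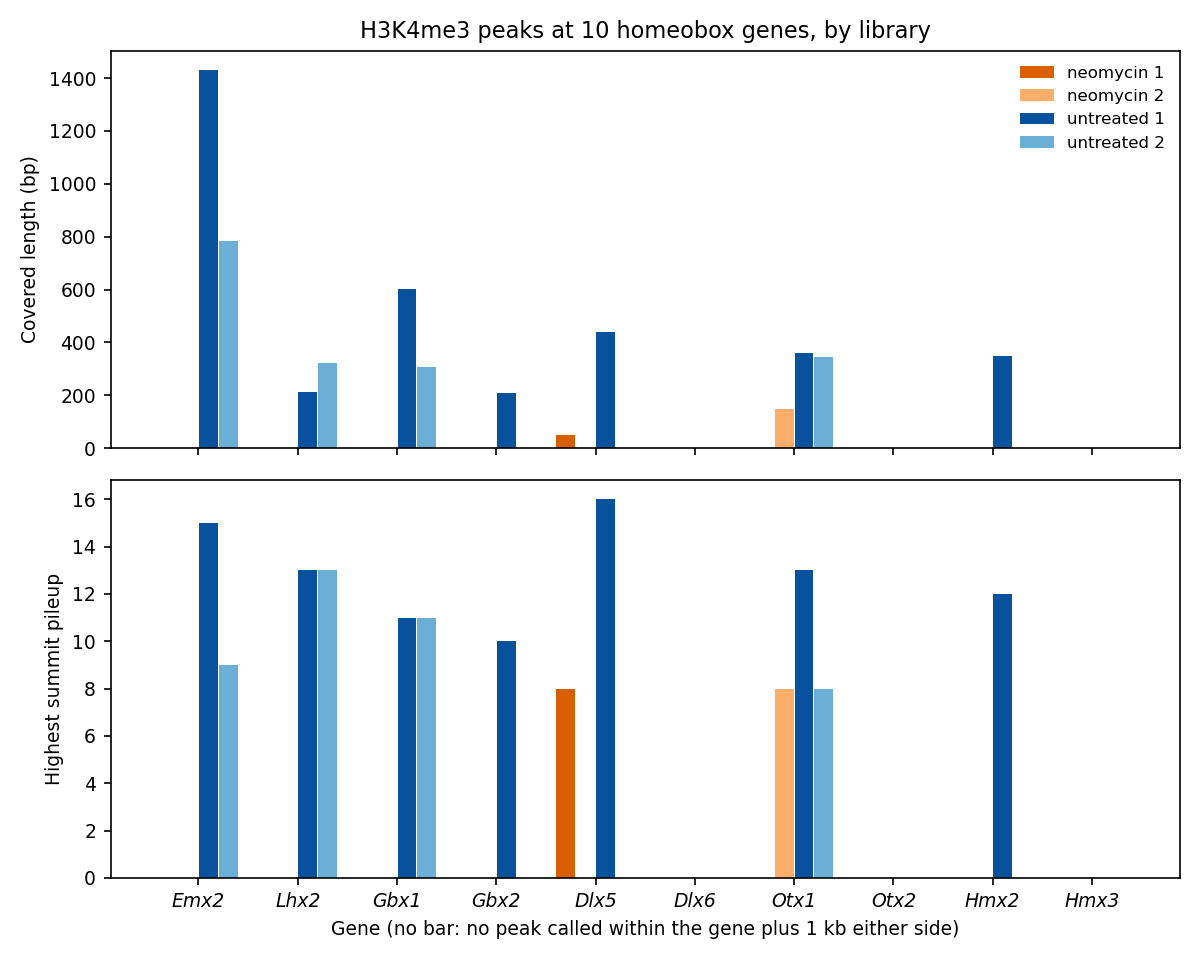
Bars give, for each of the 10 genes and each library, the bases covered by peaks within the gene plus 1 kb either side (upper axis, bp) and the highest pileup at a peak summit there (lower axis). Neomycin bars stand only at Dlx5 (48 bp) and Otx1 (148 bp), and the tallest bars of covered length are those of Emx2 in the untreated libraries (1432 and 782 bp).

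The 4 lists, of 14203, 11545, 15938 and 10520 peaks, differ in what the peak caller could report, and this bears on every length given here. The shortest peak was 48, 110, 187 and 234 bp long and the median 70.0, 142, 310.5 and 340.0 bp, so that any untreated peak is longer than the shortest neomycin ones. The median pileup, the height of stacked fragments at the summit, was 7.0, 11.0, 13.0 and 11.0. Read totals are not in the lists, so the depth is unknown. Start sites of 12 listed markers of supporting cells, Lgr5 among them, were marked in 11, 12, 12 and 11 cases, and none of 4 blood markers was marked in any library.

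Emx2 had the widest marking of the 10 genes. It lies on chromosome 19 from 59458690 to 59465357. The covered length, the bases under its peaks, was 0 and 0 bp in the neomycin libraries, 1432 bp over 4 peaks in untreated 1 and 782 bp over 2 peaks in untreated 2. Both untreated libraries thus lay above both neomycin libraries, whose nearest peaks were 112 and 113 kb from the gene. Among all genes with a peak in the same library, the Emx2 covered length stood at percentile 97.1 in untreated 1 and 85.0 in untreated 2. The untreated 1 values include a peak of 333 bp before the start that cannot be assigned to Emx2 with certainty (described below).

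At Emx2 the peaks of both untreated libraries met just downstream of the start. The peak from 316 to 754 bp inside the gene in untreated 1 and the one from 397 to 829 bp in untreated 2 shared 358 bp, and their summits were 15 bp apart. Untreated 2 had a further peak from 906 to 1254 bp. Untreated 1 had 2 more inside the gene, from 2659 to 3131 bp and from 3466 to 3652 bp, and 1 before the start, from -573 to -241 bp. That last peak lies in Emx2os, an antisense RNA gene that ends 54 bp from Emx2, and cannot be assigned to either gene. Between -241 and 316 bp, around the start itself, neither untreated library had a called peak. Pileups were near the median of their lists. The tallest Emx2 summit had a pileup of 15 in untreated 1 and 9 in untreated 2, which is 1.15 and 0.818 times the library's median peak.

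Lhx2 had a single short peak on its outer start in each untreated library. It lies on chromosome 2 from 38339271 to 38369737, and the covered length was 0, 0, 212 and 324 bp. The groups did not overlap. The untreated 1 peak, from -137 to 74 bp of the start, lay wholly within that of untreated 2, from -224 to 99 bp, with summits 47 bp apart. Pileup was 13 in both. The -log10 q of the authors' peak caller was 9.46 and 11.0, at percentiles 57.3 and 83.3 of the respective lists, so these were not the weakest peaks. The length was at percentile 10.8 and 32.9 of genes with a peak. Both peaks also touch Gm46736, a long non-coding RNA gene that ends 60 bp before Lhx2. The inner start of Lhx2, at 38351308, had no peak within 1 kb in any library, and the nearest neomycin peaks to the gene were 52.6 and 52.2 kb away, in Dennd1a.

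The paralogues Gbx1 and Gbx2 were marked unequally. Gbx1, on chromosome 5 from 24504426 to 24526848, had 0, 0, 601 and 307 bp covered, with 2 peaks in untreated 1 and 1 in untreated 2. All lay at its upper end. One untreated 1 peak, from 113 to 299 bp inside that end, shared 150 bp with the untreated 2 peak from 150 to 456 bp, and the other lay outside, from -467 to -54 bp. The inner peak of untreated 1 was 187 bp long, the shortest that list holds. The nearest neomycin peaks were 51.3 and 51.2 kb from Gbx1, in Agap3. Gbx2, on chromosome 1 from 89927962 to 89931176, had 1 peak, in untreated 1, of 207 bp and pileup 10, from 581 to 787 bp inside the start. Its -log10 q of 3.32 stood at percentile 0.762 of the list, near the weakest peak called. At Gbx2 untreated 2 thus had no peak, like both neomycin libraries, and its nearest one lay 37.1 kb away, in Asb18. The neighbour of Gbx2 within 1 kb is LOC102637806, a protein-coding gene 898 bp away.

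Otx1 had a peak in 3 of the 4 libraries, the highest number among the 10 genes with a flank of 1 kb. This lead was lost with no flank and with lists of equal length, where Otx1 had 2, as did Emx2, Lhx2 and Dlx5. With a flank of 2.5 kb Hmx2 also had 3, and with peaks of a -log10 q of at least 10 Otx1 had 0. It lies on chromosome 11 from 21994764 to 22001651 and had 0, 148, 359 and 344 bp covered. Pileup was 0, 8, 13 and 8, so that neomycin 2 equalled untreated 2 on that measure. The peaks stepped across the upper gene end. In neomycin 2 the peak lay from 106 to 253 bp inside it, in untreated 1 from -218 to 140 bp, and in untreated 2 wholly outside, from -505 to -162 bp. Untreated 1 shared 35 bp with neomycin 2 and 57 bp with untreated 2. As percentiles of genes with a peak, the lengths were 34.7 in neomycin 2, 33.8 in untreated 1 and 36.6 in untreated 2, and on that scale the groups overlap. Otx2, its paralogue on chromosome 14 from 48656781 to 48667644, had no peak at any of its 4 starts. The nearest peak was 173 kb away in neomycin 1 and 210 kb away in each other library, in Tmem260.

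Dlx5 and Dlx6 lie 9.83 kb apart on chromosome 6, and peaks were called at Dlx5 alone. Dlx5, from 6877801 to 6882068, had 48, 0, 439 and 0 bp covered. The marked libraries were thus replicate 1 of each group, and the groups overlap. The neomycin peak, from 117 to 164 bp inside the upper gene end, is as short as that list allows and lies inside the untreated one, from 74 to 512 bp. The untreated 1 peak had the highest pileup (16) and -log10 q (13.0) of the 18 peaks. Dlx6, from 6863334 to 6867970, lay 13.9 and 13.6 kb from these Dlx5 peaks and 88.1 and 88.0 kb from the nearest peak in the replicates 2. The gap between the genes, which the long non-coding RNA gene Dlx6os1 enters, had no peak in any library.

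Hmx2 and Hmx3 lie 2.73 kb apart on chromosome 7 and had 1 peak in all. Hmx2, from 131548757 to 131558014, had 0, 0, 348 and 0 bp covered, with the untreated 1 peak (pileup 12) inside the gene, from 1450 to 1797 bp past its inner start. It lay within 1 kb of neither listed start. Peaks of neomycin 2 and untreated 2 lay 2.41 and 2.36 kb beyond Hmx2, but in Bub3, a gene of the mitotic checkpoint. Hmx3, from 131541532 to 131546027, and the gap to Hmx2 had no peak in any library. In each of the 4 pairs of paralogues the number of libraries with a peak differed. It was 2 and 1 for Gbx1 and Gbx2, and 3 and 0 for Otx1 and Otx2. For Dlx5 and Dlx6 it was 2 and 0, and for Hmx2 and Hmx3 1 and 0. The numbers also differed in every pair with lists of equal length, with no flank and with a flank of 2.5 kb. With peaks of a -log10 q of at least 10, only Dlx5 and Dlx6 differed, with 1 and 0. The other pairs then had 0 and 0. How often pairs of other genes differ was not counted, so nothing is read from this.

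**Figure D2:**
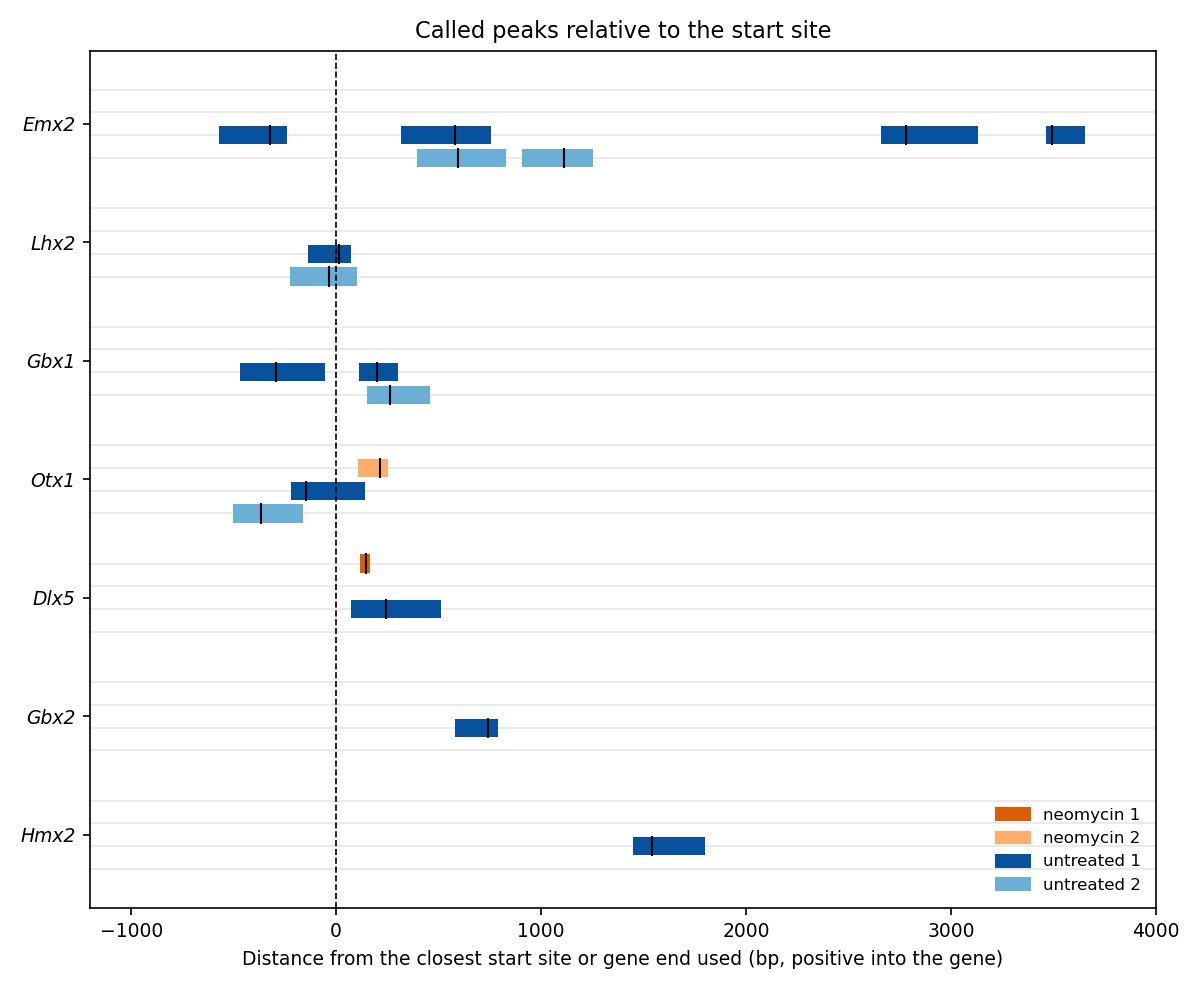
Each coloured bar is 1 called peak, drawn to scale by its distance in bp from the closest start site (or, for Gbx1, Otx1 and Dlx5, the gene end used), with the summit as a black line and 1 row per library for the 7 genes with a peak. The summits of untreated 1 and untreated 2 that lie in overlapping peaks are 15 bp apart at Emx2, 47 bp at Lhx2, 65 bp at Gbx1 and 219 bp at Otx1.

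Most of these peaks were of ordinary or low strength for their library. In untreated 1, 4 of 11 peaks had a -log10 q above the median of the list, and in untreated 2 it was 2 of 5. The values ran from 3.32 to 13.0 in the first and from 5.1 to 11.0 in the second, and 2 of the 16 untreated peaks (Dlx5 in untreated 1 and Lhx2 in untreated 2) reached 10. The neomycin peaks had 3.65 at Dlx5 and 3.23 at Otx1. Of all 18 peaks, 13 had the summit on the gene side of the start or gene end used and 12 lay wholly inside the gene. At Gbx1, Dlx5 and Otx1 that end was itself chosen by the peaks. How often peaks at other genes lie so was not counted, so nothing is read from these 2 counts. The untreated libraries shared some of these peaks. Of the 5 peaks in untreated 2, 4 overlapped a peak of untreated 1, as did 83.8% of all its peaks, while 4 of the 11 in untreated 1 overlapped one of untreated 2, against 57.6% of all. Peaks of neomycin 1 and neomycin 2 overlapped 1 and 1 of the 11, against 40.1% and 39.8% of all peaks in that list, and 0 and 0 of the 5, against 45.0% and 44.1%.

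At the start site, within 1 kb either side, Emx2, Lhx2 and Gbx1 (3 of the 10 genes) were marked in untreated 1 and untreated 2 while neither neomycin library had a peak there. Of all protein-coding genes 4.66% had that pattern, and of those marked at the start in some library 8.47%. None of the 10 had the reverse, against 1.41% of all genes (2.56% of those marked), and none was marked in all 4 libraries, against 16.6% (30.2%). Start sites were marked at 1, 1, 6 and 4 of the 10 genes. For Gbx1, Dlx5 and Otx1 the gene end used was itself chosen by the peaks, so their marking at the start is partly set by that rule. Of the 6 genes with a listed start, 2 (Emx2 and Lhx2) were marked in both untreated libraries alone, against 4.53% of all genes with a listed start. With both gene ends counted where no start is listed, an alternative chosen after seeing the data, the genes were again Emx2, Lhx2 and Gbx1, and the share of all genes was 4.66%. These genes were chosen with such results known, so nothing is read from the difference to the background, and no test was made. With 2 libraries against 2, no permutation test could pass the usual threshold.

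By covered length, 4 of the 10 genes (Emx2, Lhx2, Gbx1 and Otx1) were longer in both untreated libraries than in both neomycin libraries and none was shorter, against 31.6% and 1.73% of all genes, or 53.2% and 2.91% of genes with a peak in some library. The median over the 10 genes was 0.0, 0.0, 280.0 and 0.0 bp, and over all genes 0.0, 0.0, 187.0 and 0.0 bp. With lengths as percentiles within each library the genes were Emx2, Lhx2 and Gbx1, and the shares of all genes were 14.3% and 7.59%. Emx2, Lhx2 and Gbx1 also had more peaks in both untreated libraries and a higher pileup there. More peaks were found in 6.29% of all genes and 10.6% of those with a peak, and in reverse in 3.86% and 6.49%. A higher pileup was found in 21.4% and 35.9%, and in reverse in 1.69% and 2.84%. With pileup divided by the library's median they were again these 3, and the shares were 13.6% and 5.64%. None of the 10 had a reverse order in number or pileup. Untreated 1 held 11 of the 18 peaks. Without untreated 2 the counts were 7 for length, 7 for pileup and 5 for peak number, and the shares of all genes were higher too, at 47.3%, 43.9% and 15.8%. Without untreated 1 the counts were 4, 3 and 3, and the shares 35.7%, 23.9% and 8.44%. When only peaks with a -log10 q of at least 10 were used, all 3 counts and the start site count were 0. Of all genes, 7.62% (length), 7.41% (pileup), 7.37% (peak number) and 6.65% (start site) then had the pattern, so a count of 0 among 10 genes is near the background. When at least 500 bp of the start window had to be covered, the start site count was 1 (Emx2), against 8.79% of all genes. When the lists were cut to equal length, the genes marked at the start in the untreated libraries alone were Emx2, Lhx2 and Otx1, against 5.04% of all genes. Gbx1 then kept a peak in 1 library and Otx1 in 2.

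CpG content varied widely among the starts of these genes. A peak reached into the 300-base window at Emx2 in untreated 1, by its edge, and at the outer start of Lhx2 in both untreated libraries, and into none of the other 9 windows. Of the 11 listed starts, 5 fell in the richest of 4 CpG classes of about equal size over all 21263 listed starts (25 to 67 CpG per window): Emx2 with 26, Gbx2 with 27, Lhx2 with 34 at the outer and 29 at the inner start, and Hmx3 with 39. Over all starts in that class, 63.1%, 61.5%, 88.1% and 73.3% had a peak within 1 kb. Of the 5 starts here, 0, 0, 3 and 2 did. Hmx3 has more CpG than 94.2% of starts and the densest capitals in the sequences printed above, and had no peak in any library. The outermost Otx2 start has 6 CpG, in a class (5 to 13 CpG) of which 21.7%, 20.0%, 28.9% and 18.6% were marked. The outer Hmx2 start has 2, in the class of 0 to 4 CpG, of which 1.69% to 2.6% were marked. Both genes also have a start richer in CpG, with 16 at an inner Otx2 start and 22 at the inner Hmx2 start. Of all starts in that class (14 to 24 CpG), 53.8%, 52.4%, 69.2% and 51.2% were marked. Neither of these inner starts had a peak within 1 kb in any library. The 6 letters TAATTA, which read the same on both strands and which many homeodomain proteins bind, occur in 3 of the 11 windows, those of Emx2 and of 2 Otx2 starts, against 4.53% of all windows. The letters CCAAT, searched on both strands, occur in 3 of 11 against 38.2%. Such matches describe the letters only.

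**Figure D3:**
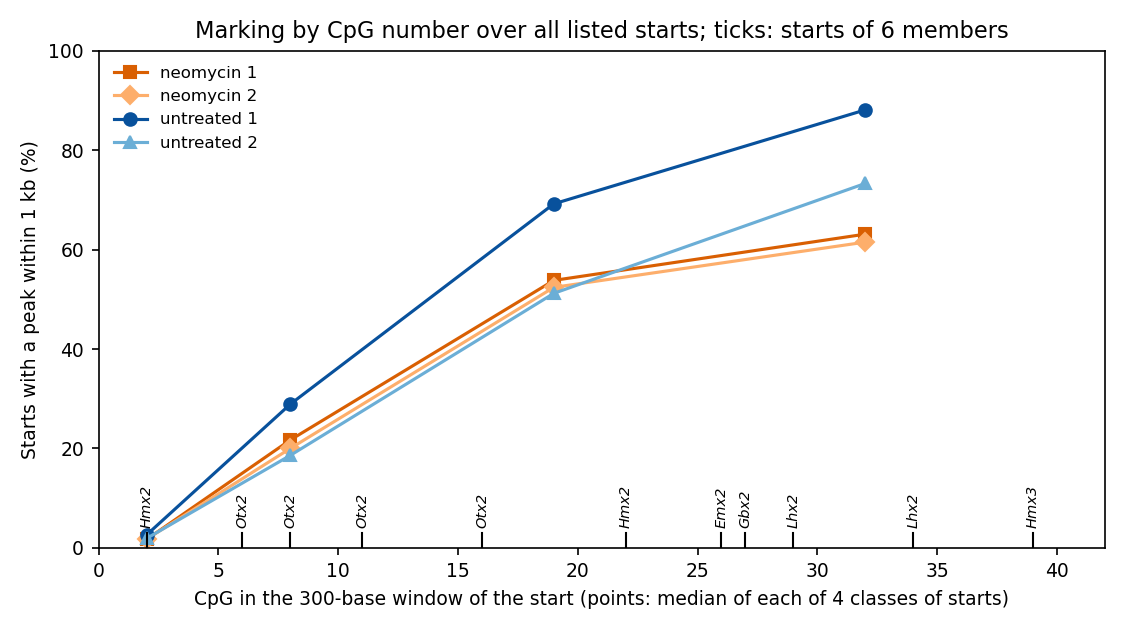
Lines give, for each library, the percentage of all 21263 listed starts with a peak within 1 kb, by 4 classes of CpG number per 300-base window (plotted at the median of each class), and ticks on the x axis mark the 11 starts of 6 of the genes. Marking reaches 61.5% to 88.1% in the richest class, where Emx2, Gbx2, Lhx2 and Hmx3 lie.

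Start sites of other homeobox genes held peaks in both groups. Of 31 other otic homeobox genes, 18, 13, 22 and 21 were marked at the start in that order of libraries, and 10 were marked in all 4. Of 32 other forebrain genes, all homeobox genes except Sim1, 7, 5, 13 and 7 were marked, and 3 in all 4. In each list 1 gene was marked in both untreated libraries alone (3.23% and 3.12%) and none in both neomycin libraries alone. They were Dlx4, a relative of Dlx5 and Dlx6, with 0, 0, 257 and 234 bp covered, and Barhl2, a factor of retina and forebrain, with 0, 0, 494 and 303 bp. By covered length, 18 of the 31 (58.1%) and 8 of the 32 (25.0%) were longer in both untreated libraries and none shorter. Over all genes 34.8%, 33.6%, 47.0% and 36.3% were marked at the start.

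**Figure D4:**
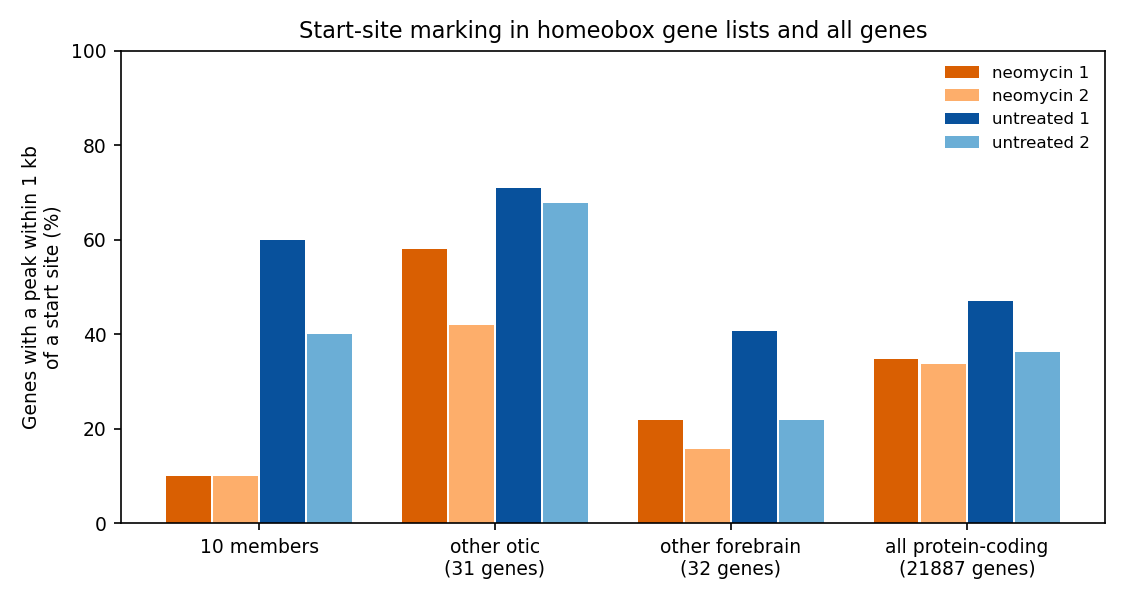
Bars give the percentage of genes with a peak within 1 kb of a start site in each library, for the 10 genes, the 2 other homeobox lists and all protein-coding genes. The 10 genes have 10.0% in each neomycin library and 60.0% and 40.0% in the untreated libraries, while the other otic genes have 58.1% and 41.9% against 71.0% and 67.7%. Where no start is listed, as for Gbx1, Dlx5 and Otx1, the gene end with peaks in more libraries is used. For Dlx6, which had no peak, the lower end is used.

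Markers of cochlear mesenchyme, too, had peaks more often in the untreated libraries. Of 8 listed markers, 0, 0, 4 and 5 were marked at the start in that order of libraries, and their summed covered length was 0, 333, 1964 and 2353 bp. Coch, Twist1, Prrx2 and Sp7 (4 of the 8) were marked in both untreated libraries alone, against 4.66% of all genes. Tbx18 had 0, 113, 0 and 338 bp covered and Prrx1 0, 220, 345 and 0 bp, so each had a peak in 1 library of each group. Pou3f4 and Col1a1 had no peak in any. Of 8 neuronal markers 0, 2, 4 and 4 were marked, with 526, 1761, 6370 and 4482 bp, and of 8 hair cell markers 2, 1, 4 and 1, with 229, 151, 2140 and 955 bp. Among the hair cell markers Atoh1 had 0, 0, 601 and 955 bp, which is all of their length in untreated 2. Most of the length in the neuronal list lay at Gata3 alone, with 344, 1130, 4189 and 2874 bp. Neurog1 and Snap25 had no peak in any library, and Neurod1 had one in neomycin 1 only. The neuronal sum is thus mainly that of 1 gene. Whether the genes of any list are particular to its cell type was not tested, so Gata3 peaks need not come from neurons. Of 4 glial markers 1, 1, 3 and 2 were marked, with 296, 110, 1086 and 545 bp. Marking in both untreated libraries alone was also found at 1 hair cell marker (Atoh1), 1 neuronal marker (Gata3) and 1 glial marker (Pou3f1). By number marked, hair cell markers did not have both untreated libraries above both neomycin libraries, since neomycin 1 lay above untreated 2. Melanocyte markers lacked that order both by number (2, 1, 2 and 0 of 4 marked) and by length (349, 231, 1799 and 244 bp). Mitf had more peaks in both neomycin libraries (2, 2, 1 and 0), as did 3.86% of all genes. Its covered length of 174, 231, 650 and 0 bp did not have that order. The part of such cells, or of peak length and depth, in the peaks at the homeobox genes was not tested.

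The median covered length of the 10 genes, taken library by library, is above 0 in untreated 1 alone, a pattern that 2 of the genes (Gbx2 and Hmx2) have themselves. The 5 genes nearest to this median, by Euclidean distance of log2(covered length + 1), were Nup35, Thegl, Adcy4, Cilp2 and Ctxn2, each with 271 or 272 bp in untreated 1 and 0 bp elsewhere. In all, 889 genes had a peak in untreated 1 alone, and 824 of the 21887 lay within 1 log2 unit of the median, so these names carry little beyond an example.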

How the data were processed

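The data are 4 libraries of chromatin immunoprecipitation with sequencing for H3K4me3. The submitters' processing notes list mm10 as the build, and CASAVA 1.4, Bowtie2, deepTools and MACS2 as tools, with no roles or parameters, and whether the inputs were used is not given in the sources used here. The authors deposited 1 peak list per library, with positions in bp. Columns hold, per the file headers, a pileup signal at the summit of a peak, a fold enrichment ratio, and a -log10 p-value and -log10 q-value. All belong to single peaks as the authors' caller gave them and served to describe or rank peaks within a list.

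Groups came from the labels. Genes were the protein-coding genes of GRCm38.p6 on the main chromosomes, where a peak counted from 1 bp of overlap with the gene plus 1 kb. Start sites came from the RefSeq promoter table for 17492 genes, and for 4395 from the gene end with peaks in more libraries, then with more peak bases, then of lower coordinate. Covered length is the union of those peaks. Exons and introns were not analysed here.

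The genes and lists were chosen with earlier results of these data known, so no test was made. All 10 genes were named, with neighbours within 1 kb, the 5 genes of most similar profile, and up to 6 genes per list and direction marked in 1 group alone. Interval counting was tested on simulated data. Python 3.11.15, pandas 2.3.3, numpy 2.4.6 and matplotlib 3.10.9 were used.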

Additional observations from a re-analysis of the deposited data

How the results depend on the processing

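Of 90 counts recomputed under the alternatives, 81 stayed within 1.5 times the count reported, 5 were lower and 4 higher. Many of the 81 belong to results with a reported count of 0. These are the reverse orders and the start marked in all 4 libraries, where a count cannot fall. The figure of 81 is thus no measure of stability. When peaks with a -log10 q under 10 were left out, the counts of genes longer, with more peaks, with a higher pileup and marked at the start in both untreated libraries were each 0, against 4, 3, 3 and 3, with 7.62%, 7.37%, 7.41% and 6.65% of all genes. With at least 500 bp of the start window covered, the last was 1 (8.79% of all genes). With 1 library left out, these counts ran from 4 to 7 (longer), 3 to 5 (more peaks), 3 to 7 (higher pileup) and 3 to 4 (marked at the start), the highest of each without untreated 2, or for the last also without neomycin 2. The shares of all genes ran from 32.2% to 47.3%, 8.44% to 15.8%, 22.2% to 43.9% and 5.74% to 11.1%. The count marked in all libraries ran from 0 to 1, with Otx1 the gene when neomycin 1 was left out. Of all genes 22.2% were so marked without neomycin 1, and 17.4% to 23.1% with any 1 library left out. The counts in the reverse direction were 0 under all alternatives, where 0.0% to 13.5% of all genes had such an order. With a -log10 q of at least 10 the share was 0.00457%, so a 0 was nearly fixed there. A count of 0 among 10 genes therefore says little. Of 40 recomputed numbers of libraries with a peak per gene, 12 changed, 7 of them with the stricter q. The causes were not tested. Depth is unknown, so a missing peak gives no limit on the mark. No test was made, so none was paired. With groups compared only within each replicate number (a replicate block, chosen after seeing the data), the counts were 4 (longer), 3 (more peaks) and 3 (higher pileup), at the same genes, against 32.8%, 7.79% and 22.4% of all genes. The labels do not say what libraries of 1 number share.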

Other observations

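Several homeobox genes of the inner ear were marked at the start in all 4 libraries, and some of them broadly. These genes were picked after their values were seen. Six4, a partner of the Eya co-activators, had 307, 419, 1333 and 1147 bp covered (neomycin 1, neomycin 2, untreated 1, untreated 2), and Pax2, a paired-box gene of the early otic placode, had 173, 627, 1236 and 968 bp. Irx3 and Irx5, neighbouring Iroquois genes, had 408, 563, 2125 and 962 bp and 381, 752, 2594 and 1615 bp. The untreated libraries were the longer ones at each of these 4 genes, in lists whose shortest peaks also differ (48, 110, 187 and 234 bp).

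The neighbouring genes Dlx1 and Dlx2, relatives of Dlx5 and Dlx6, were marked in different libraries. Dlx1 had 79, 0, 636 and 0 bp covered, and Dlx2 had 0, 117, 0 and 739 bp. Each thus had a peak in 1 library of each group, Dlx1 in the replicates 1 and Dlx2 in the replicates 2. Emx1, the paralogue of Emx2, had 0, 129, 743 and 279 bp, with the start marked in every library except neomycin 1.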
